A study of Mus musculus with 3 samples.

Results

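Histone genes encode the proteins that package DNA, and their transcripts were described in type 2 innate lymphoid cells (ILC2s) sorted from mouse lung. The members were chosen by symbol, as the listed genes whose names carry the stems of the linker histone H1 and the core histones H2A, H2B, H3 and H4. This rule found 64 of 16129 listed genes. By symbol alone, 53 were assigned to the replication-dependent class and 11 to the polyadenylated variants. A further 12 RefSeq genes whose current symbols fit the rule were not analysed here.

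The study profiled ILC2s, lymphocytes without rearranged antigen receptors, from wild-type mice treated in vivo with IL-33, a cytokine that is released by damaged epithelium and stimulates ILC2s. It comprised 3 RNA sequencing libraries of 1 group, numbered 1 to 3 in their titles, and no untreated library was analysed here. No effect of IL-33 could therefore be measured, and every comparison below is between genes within the same libraries. The labels give neither strain nor age and do not tie libraries to separate animals, so differences among the libraries may be technical.

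Replication-dependent histone genes lie in clusters, mostly lack introns and are switched on when DNA is copied in S phase. Their mRNAs normally end in a short stem-loop that is bound by the protein SLBP instead of in a poly(A) tail. Variant histone genes mostly lie outside these clusters and give polyadenylated mRNAs through the cell cycle. They supply histones such as H3.3 and H2A.Z that are placed on chromatin without DNA replication. In lymphocytes the replication-dependent mRNAs are known to rise when resting cells enter division. The sources used here do not say how mRNA was selected for these libraries, and the part that the missing poly(A) tail plays in the levels below was not tested.

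The stem-loops of the members on which the results turn are printed here to show the end that separates the classes. They were read from GENCODE vM21 transcripts (build GRCm38), 5′ to 3′, with the 16-base stem-loop in capitals and up to 5 bases on each side. H1f2 and H2ac18 were the highest replication-dependent members, H4c9 was the highest H4 gene, and H3c14 and H3c15 are near copies. H2afx is the only variant gene in whose transcript the motif was found.
H1f2, chr13:23739507-23739532, plus strand: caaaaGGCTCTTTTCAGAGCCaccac
H2ac18, chr3:96246027-96246052, plus strand: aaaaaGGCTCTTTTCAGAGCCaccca
H4c9, chr13:22040961-22040986, minus strand: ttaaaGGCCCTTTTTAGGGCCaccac
H3c14, chr3:96247322-96247347, plus strand: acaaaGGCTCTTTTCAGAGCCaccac
H3c15, chr3:96238480-96238505, minus strand: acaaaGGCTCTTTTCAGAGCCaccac
H2afx, chr9:44335235-44335260, plus strand: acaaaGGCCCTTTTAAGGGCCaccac

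The motif searched was GGNNNTTTTNANNNCC on the transcript strand, with a stem whose sides pair base for base. It was found in transcripts of 34 of the 53 replication-dependent genes and of 1 of the 11 variants, H2afx. Among 21901 protein-coding genes of the annotation, 55 (0.251%) held it, of which 35 were members. The stem-loop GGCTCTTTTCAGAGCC was carried by 20 members, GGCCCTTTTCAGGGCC by 5, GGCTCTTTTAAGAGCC by 5 and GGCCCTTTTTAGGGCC by 2, while 3 members carried other letters. H3c14 and H3c15 have the same 26 bases here, and H4c9 differs in the stem and loop from H1f2 and H2ac18. The polyadenylation hexamer AATAAA lay in the last 40 bases of the transcript for 8 replication-dependent genes and 6 variants. A match is a description of the letters and not of a used site. Some of the transcript models are short, such as 312 bases for H4c12 and 381 bases for H2bc13. A model that stops before the stem-loop or hexamer cannot show it, so a miss does not mean that the gene lacks it.

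Measured transcript levels of the 2 classes differed widely, and most of the summed level came from a few variants. How mRNA was selected is not known here, so the shares below describe the libraries and not the cells. In TPM, a level per transcript length that sums to the same total in each library, the 64 genes summed to 2711, 2752 and 2678 in replicates 1, 2 and 3. This was 0.271% ± 0.0037 of all TPM (mean ± SD, n = 3 libraries, here and below). The 11 variants summed to 2498, 2537 and 2466 TPM, and the 53 replication-dependent genes to 212.2, 215.0 and 212.6 TPM. The replication-dependent genes therefore made up 7.86% ± 0.0677 of histone TPM and the variants 92.1% ± 0.0677, in ranges that did not overlap between the classes. The level of a gene in these pooled cells cannot tell apart a few cells with much of its RNA and many cells with little.

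Detection was defined as a level of at least 1 TPM in all 3 libraries. By this rule 8 of 11 variants (72.7%) and 15 of 53 replication-dependent genes (28.3%) were detected, beside 67.3% of all listed genes. A mean of at least 5 TPM was reached by 7 variants (63.6%) and 5 replication-dependent genes (9.43%), beside 58.4% of all listed genes. With at least 10 estimated reads in each library as the rule, the replication-dependent count was 9, beside 72.4% of all listed genes. The variants lay near the background by both TPM measures and the replication-dependent genes below it. No estimated read fell in at least 1 library for 28 replication-dependent genes (52.8%) and for 0 variants, beside 14.1% of all listed genes. The median level was 0.933 TPM for the replication-dependent class, 104.6 TPM for the variants and 11.2 TPM for all listed genes, which is 0.78, 6.72 and 3.61 as log2(TPM + 1).

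**Figure D1:**
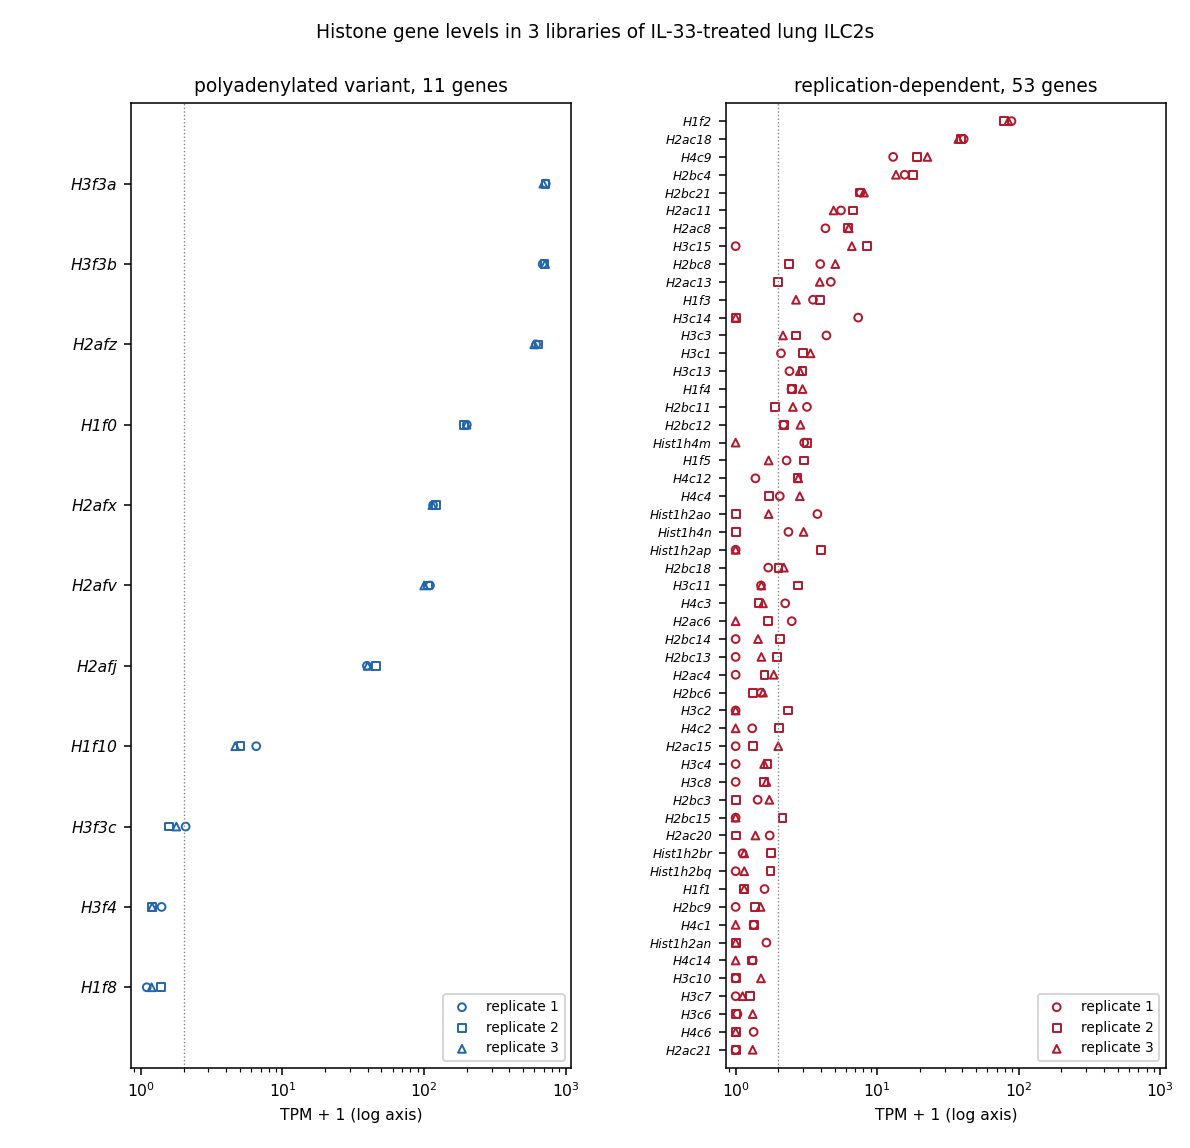
Level of each histone gene as TPM + 1 on a log axis, with 1 symbol per library, the 11 polyadenylated variants at the left and the 53 replication-dependent genes at the right; the dotted line marks the detection level of 1 TPM. The 3 libraries of H3f3a, H3f3b and H2afz lie together near the top of the scale, while most replication-dependent genes lie close to or below the line.

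H3f3a and H3f3b encode the same replacement histone, H3.3, which enters chromatin of transcribed genes and of regions that are not being replicated. H3f3a (Entrez gene 15078, chromosome 1 from 180802560 to 180813605, minus strand, GRCm38.p6) stood at 722.9, 720.3 and 695.4 TPM. H3f3b (15081, chromosome 11 from 116021961 to 116026039, minus strand) stood at 687.8, 708.3 and 715.5 TPM. The ranges of the 2 genes overlap. Within libraries, log2(TPM + 1) of H3f3a minus that of H3f3b was 0.07, 0.02 and -0.04, a mean of 0.02 ± 0.057, with H3f3a higher in 2 of 3 libraries. An exact two-sided sign-flip test gave p = 0.75, and 0.75 after Benjamini-Hochberg adjustment over the 3 pairs tested. Before the correction for length the order was different, since H3f3b received 12903, 13107 and 13223 estimated reads and H3f3a 7229, 7107 and 6845. In depth-scaled reads the difference of H3f3a minus H3f3b was -0.89 on the log2 scale, so that the near equality holds per transcript length and not per read.

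H2afz and H2afv, which RefSeq calls H2az1 and H2az2, encode the closely related forms of H2A.Z, a variant placed at promoters and enhancers. H2afz (51788, chromosome 3 from 137864487 to 137866922, plus strand) stood at 618.5, 641.5 and 599.5 TPM. H2afv (77605, chromosome 11 from 6427226 to 6444511, minus strand) stood at 109.2, 105.3 and 99.3 TPM. The lowest library of H2afz lay well above the highest of H2afv. The difference on the log2(TPM + 1) scale was 2.49, 2.60 and 2.58, a mean of 2.56 ± 0.0564 or 5.88-fold, with H2afz higher in 3 of 3 libraries. With 3 libraries the exact two-sided sign-flip test cannot go below p = 0.25, the value obtained, and adjustment over the 3 pairs gave 0.375, so the difference does not pass a test in this design. In depth-scaled reads, not divided by length, the difference was 1.90.

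H2afx, RefSeq H2ax, encodes the H2A variant that is phosphorylated around DNA breaks. It lies on chromosome 9 from 44334715 to 44336077 (15270, plus strand) and stood at 114.9, 120.5 and 113.7 TPM, or 116.4 ± 3.61. Its RefSeq model extends 822 bases beyond the stem-loop printed above, AATAAA was not found in the last 40 bases of its transcript, and it was placed with the variants by symbol. Counted with the replication-dependent genes instead, it would raise their share of histone TPM to 12.1%. H2afj, RefSeq H2aj, encodes an H2A variant close to the replication-dependent form and stood at 38.5, 44.7 and 38.9 TPM (232440, chromosome 6 from 136808248 to 136810074, plus strand). Replicate 2 was highest for both genes.

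The linker histone variant H1f0, known for accumulating in cells that leave the cell cycle, stood at 199.6, 191.5 and 198.4 TPM (14958, chromosome 15 from 79028212 to 79030504, plus strand). H1f10, another linker variant, stood at 5.53, 4.05 and 3.64 TPM (243529, chromosome 6 from 87980421 to 87981482, minus strand). H1f0 was higher in 3 of 3 libraries, by 4.94, 5.25 and 5.43 on the log2(TPM + 1) scale, a mean of 5.21 ± 0.245 or 36.9-fold on that scale. The exact two-sided sign-flip test again gave its smallest possible p = 0.25, adjusted 0.375. In depth-scaled reads the difference was 6.09. The remaining variants H3f3c, H3f4 and H1f8, the oocyte linker histone, had means of 0.81, 0.267 and 0.227 TPM and were not detected. Of the 50-base words of H3f3c, 67.7% also occur in H3f3a, so its few reads are uncertain.

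Among the replication-dependent genes taken by the symbol rule, transcript levels were concentrated in 5 members. These held 75.8%, 73.2% and 75.8% of the class TPM in replicates 1, 2 and 3. The other 48 genes summed to 51.3, 57.6 and 51.5 TPM.

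H1f2, which encodes a replication-dependent linker histone, was the highest at 87.8, 77.9 and 83.3 TPM, or 83.0 ± 4.97, on 572.6, 500.9 and 534.8 estimated reads. It lies on chromosome 13 from 23738807 to 23739531 (50708, plus strand) and alone made up 38.9% ± 2.59 of the class. Its level lay below those of 6 variants and above that of H2afj. The other replication-dependent linker genes were far lower, with H1f3 at 2.52, 2.96 and 1.67 TPM and H1f4 at 1.48, 1.5 and 1.97 TPM. H1f5 and H1f1 had means of 1.35 and 0.3 TPM and were not detected in all libraries.

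H2ac18, an H2A gene on chromosome 3 from 96245497 to 96246052 (15267, plus strand), stood at 39.8, 38.0 and 36.5 TPM, or 38.1 ± 1.69. The SD over its libraries was 0.723 times the counting SD, a value that counting alone can give with 3 libraries. Of its 50-base words, 89.2% also occur in Hist2h2aa2, a near copy that was not analysed here, so the level cannot be assigned to 1 of the 2 genes.

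H4c9, an H4 gene on chromosome 13 from 22040960 to 22041362 (319158, minus strand), stood at 11.96, 18.2 and 21.6 TPM, or 17.3 ± 4.90. It varied most among the 5 high members, and its SD over libraries was 2.11 times the counting SD on 40.8, 61.2 and 72.7 estimated reads. Replicate 1 was lowest. No other H4 gene was detected, and H4 was the type with the fewest detected genes, at 1 of 10.

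H2bc4 and H2bc21 encode H2B. H2bc4 (68024, chromosome 13 from 23684199 to 23692480, plus strand) stood at 14.6, 16.9 and 12.6 TPM, or 14.7 ± 2.15. H2bc21 (319190, chromosome 3 from 96221072 to 96223738, plus strand) stood at 6.62, 6.51 and 7.06 TPM, or 6.73 ± 0.291. The ranges do not overlap, with H2bc4 higher in every library. H2bc21 was the steadiest of the 5, with an SD of 0.484 times counting error, and 0% of its 50-base words occur in another gene. In neither gene was the stem-loop motif found, and the H2bc21 transcript, 2620 bases long, has AATAAA in its last 40 bases.

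Just below the level of 5 TPM lay H2ac11 at 4.73 ± 0.908, H2ac8 at 4.61 ± 1.12 and H3c15 at 4.35 ± 3.87 TPM. The 48 lower genes ranged from 0.107 to 4.73 TPM with a median of 0.615 TPM, and 10 of them were detected. Their mean estimated reads ran from 0.363 to 24.8 per library. A count of 0 allows up to 3 reads, which for these genes corresponds to between 0.193 and 0.956 TPM, counting error alone. Of the 53 replication-dependent genes, 46 had fewer than 20 reads on average.

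By histone type, the summed TPM of replication-dependent H1 genes was highest, at 93.7, 84.5 and 87.8. H2A followed at 57.0, 54.5 and 51.9 TPM and H2B at 29.4, 33.3 and 31.4 TPM. H4 stood at 19.4, 24.96 and 27.8 TPM and H3 at 12.8, 17.7 and 13.7 TPM. The 5 types did not overlap over the libraries, so that the order H1, H2A, H2B, H4, H3 was the same in each, although H4 rested on 66.0 to 93.5 estimated reads and H3 on 65.0 to 87.0. The variants added no H2B or H4 gene under the symbol rule. They summed to 205.2, 195.9 and 202.2 TPM for H1, 881.0, 911.9 and 851.5 TPM for H2A, and 1412, 1429 and 1412 TPM for H3.

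Only the 64 members were counted in the shares that follow. With both classes joined, H3 genes held 52.8% ± 0.379 of histone TPM, H2A 34.5% ± 0.700, H1 10.7% ± 0.437, H2B 1.15% ± 0.0646 and H4 0.887% ± 0.163. The octamer of a nucleosome uses H2A, H2B, H3 and H4 in equal parts, and the transcript sums were far from equal. Within H3, the H3.3 genes H3f3a and H3f3b held 98.9% ± 0.153 of TPM. Within H2A, the H2A.Z genes held 77.4% ± 0.154, H2afx 12.4% ± 0.173 and H2afj 4.34% ± 0.261. Macroh2a1 and H2aw, H2A genes that the symbol rule left out, had means of 404.3 and 23.1 TPM and would lower these H2A shares. Cenpa, left out of H3, had a mean of 126.2 TPM. Within H1, H1f0 held 67.8% ± 0.908 and H1f2 28.6% ± 0.811.

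**Figure D2:**
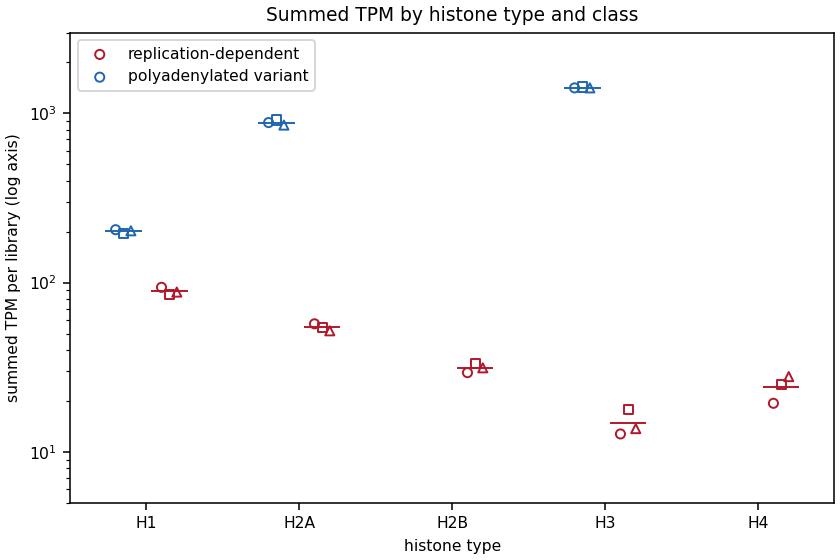
Summed TPM by histone type (log axis), with circles, squares and triangles for replicates 1, 2 and 3 and a line at the mean; red marks replication-dependent genes and blue the polyadenylated variants. The variant sums for H3 lie between 1412 and 1429 TPM, while the replication-dependent H3 sums lie between 12.8 and 17.7 TPM, and H2B and H4 have replication-dependent members only.

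The replication-dependent members lie in 2 stretches of the genome. On chromosome 13, 44 genes lie between 21715711 and 23764412, and on chromosome 3, 9 genes lie between 96219885 and 96270192. The chromosome 13 genes summed to 156.3, 159.8 and 159.7 TPM and held 74.4% ± 0.751 of the class, with 12 genes detected. The chromosome 3 genes summed to 56.0, 55.2 and 52.9 TPM, with 3 detected. H2ac18 and H2bc21 are the members above 5 TPM on chromosome 3, and H1f2, H4c9 and H2bc4 those on chromosome 13. The 11 variants are scattered over 7 chromosomes. H3f4, placed with them by symbol alone, lies on chromosome 11 from 58961711 to 58962273. That is close to 2 histone genes outside the symbol rule, H2aw (from 58954685 to 58955192) and H2bu2 (from 58948911 to 58949372).

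Reads of near-identical copies limit what can be said of single members. Over the replication-dependent genes, a median of 52.3% of the 50-base words of a transcript also occurred in another gene, with 27 of 53 genes at 50% or more. For the variants the median was 2.2%, with 1 of 11 at 50% or more. The words come from GENCODE transcripts, some of which run far beyond the stem-loop where the RefSeq gene ends. Examples are H1f3 at 7425 bases, with 2.3% of words shared, and H4c4 at 1138 bases, with 10.2%. For such genes the share may understate how many of the counted reads fit other genes. H3c14 and H3c15 are 2 such H3 genes on chromosome 3, with the same stem-loop letters. H3c14 stood at 6.34, 0 and 0 TPM and H3c15 at 0, 7.43 and 5.62 TPM. The gene with reads changed between libraries, while their sum was 6.34, 7.43 and 5.62 TPM, or 6.46 ± 0.911. Of the words of H3c15, 63.5% occur in H3c14. All words of H3c14 occur in Gm20634, whose symbol is not among the listed genes, and fewer than 50% of them in H3c15. Hist1h2ao stood at 2.78, 0 and 0.71 TPM and Hist1h2ap at 0, 3.01 and 0 TPM, and 93.5% of the words of Hist1h2ao occur in Hist1h2ap. Their sum was 2.78, 3.01 and 0.71 TPM, on 13.5, 11.5 and 3.38 estimated reads, and still varied between libraries.

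The spread between libraries was also compared with counting error, as the ratio of the SD of depth-scaled reads to the square root of their mean. For replication-dependent genes with 5 to 20 mean reads the median ratio was 1.09 over 14 genes, beside 0.956 over all 1428 listed genes of like depth. With 20 to 200 reads it was 1.16 over 6 genes, beside 0.966. Both medians lay above those of all listed genes. With 3 libraries, counting alone gives a median ratio below 1. The highest ratios among these members were 6.13 for H3c14, 4.44 for H3c15, 2.96 for Hist1h2ao and 2.11 for H4c9. Next was H2ac13 at 1.72, and the source of the spread was not tested. The 3 variants with 200 to 2000 reads had a median ratio of 2.19, beside 1.09 over 6404 listed genes of like depth. The 4 variants with 2000 to 20000 reads had a median ratio of 2.05, beside 1.76 for all listed genes there, but in relative terms varied little, with a median coefficient of variation of 2.17%. The median SD of log2(TPM + 1) was 0.23 over the 15 detected replication-dependent genes, 0.05 over the 8 detected variants and 0.06 over all 10852 detected genes.

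Of the detected members, the largest ranges were those of H2ac13, H2bc8 and H3c3. H2ac13, an H2A gene, stood at 3.7, 1 and 2.93 TPM, a range of 1.23 on the log2(TPM + 1) scale. H2bc8, an H2B gene, stood at 2.96, 1.39 and 4.06 TPM, and H3c3, an H3 gene, at 3.38, 1.66 and 1.16 TPM. A different library was highest in H2bc8 than in H2ac13 and H3c3, and all rested on fewer than 20 mean reads. Of the 50-base words of H2ac13, H2bc8 and H3c3, 90.1%, 49.7% and 47.0% also occur in other genes. The ranges may therefore not be those of single genes.

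**Figure D3:**
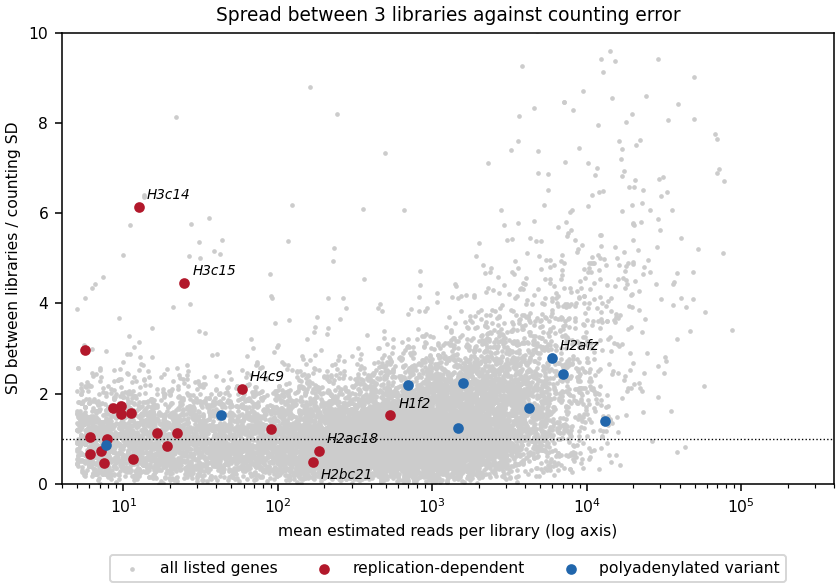
Ratio of the SD between libraries to the counting SD against mean estimated reads per library (log axis) for 12702 listed genes with at least 5 mean reads in grey, replication-dependent genes in red and variants in blue; 23 grey genes lie above the axis limit of 10. H3c14 (6.13) and H3c15 (4.44) are the highest replication-dependent genes, and H2bc21 (0.484) lies below the dotted line at 1.

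The end of the gene model decides which reads count toward a member. The submitters' processing notes give no annotation, but the lengths implied by the deposited values can be compared with RefSeq. For 13 members with at least 20 reads in some library and a short span, the RefSeq span exceeded the implied effective length by 48.3 to 50.7 bases, a nearly constant difference. H2afz, whose span includes introns, was left out of this comparison, and its implied effective length was 1009 bases. In RefSeq, 32 of the 34 replication-dependent genes with a stem-loop end 4 to 7 bases after it. Their median level was 1.19 TPM, and 3 of the 32 (H1f2, H2ac18 and H4c9) reached a mean of 5 TPM. Of the other 21 replication-dependent genes, 2 reached it (H2bc4 and H2bc21), with a median of 0.44 TPM. The models of H2bc6 and H3c6 run 1861 and 428 bases beyond the stem-loop, and these genes had means of 0.463 and 0.117 TPM. For genes whose model ends at the stem-loop, reads from longer transcripts, such as the GENCODE H1f2 transcript of 1560 bases, would not have been counted beyond that end.

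Promoter letters were compared over the 250 bases before each start, on both strands, for the 58 members with a RefSeq promoter. CCAAT, the core of the box bound by NF-Y, was found in 83.3% of 48 replication-dependent genes, 70% of 10 variants and 37.5% of 27025 genes. By type it was in 100% of the replication-dependent H1, H2A and H2B promoters, 80% of H3 and 33.3% of H4 promoters (3 of 9), the last below the share of all genes. TATAAA was found in 50%, 10% and 14.3%. The octamer ATTTGCAT, bound by OCT1, was found in 20.8%, 10% and 1.81%, and among replication-dependent genes in 50% of H2B and 33.3% of H2A promoters, with 0% of H1, H3 and H4. Neighbouring H2A and H2B genes that start within 250 bases of each other in opposite directions share much of these windows. There 1 match can count for both types, as for the ATTTGCAT between H2ac6 and H2bc4 and that between H2ac8 and H2bc8. The H2A and H2B shares are therefore not independent. A match is not a site in use, and genes without one may hold other forms of these motifs.

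H2A and H2B genes often sit head to head, sharing the stretch between their starts, and 8 such pairs lay within 500 bases. H2A was higher than H2B in all 3 libraries in 3 pairs, H2B was higher in 2, and neither held in 3. Some of these orders rest on few reads that near copies may share. In replicate 2, H2ac13 stood at 1 TPM on 3.79 estimated reads and H2bc13 at 0.95 TPM on 3.83. Of their 50-base words, 90.1% and 82.8% also occur in other genes. The 2 pairs with higher H2B include members above 5 TPM, and their shared stretches are printed because the partners differ most in level. Both come from RefSeq promoters on GRCm38.p6 and are given 5′ to 3′ on the minus strand, from the start of the H2B gene to that of the H2A gene. Capitals mark the 3 motifs named above on either strand, and a motif of the other strand appears as its reverse complement.
H2ac6 and H2bc4, chr13:23683960-23684198: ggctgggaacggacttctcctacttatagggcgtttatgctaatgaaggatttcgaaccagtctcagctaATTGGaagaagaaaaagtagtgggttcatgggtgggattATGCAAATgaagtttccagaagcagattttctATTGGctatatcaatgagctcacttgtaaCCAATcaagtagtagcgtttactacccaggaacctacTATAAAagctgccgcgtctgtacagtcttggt
H2ac20 and H2bc21, chr3:96220881-96221071: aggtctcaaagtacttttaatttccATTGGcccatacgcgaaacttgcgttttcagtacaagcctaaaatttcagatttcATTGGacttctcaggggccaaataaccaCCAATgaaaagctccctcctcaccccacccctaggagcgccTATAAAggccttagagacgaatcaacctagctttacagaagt

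H2ac6 stood at 1.49, 0.69 and 0 TPM beside H2bc4 at 14.6, 16.9 and 12.6 TPM. H2ac20 stood at 0.74, 0 and 0.38 TPM beside H2bc21 at 6.62, 6.51 and 7.06 TPM. In both pairs every H2B library lay above every H2A library. The first stretch holds 3 CCAAT, 1 TATAAA and 1 ATTTGCAT, and the second 3 CCAAT, 1 TATAAA and 0 ATTTGCAT. In both, TATAAA lies at the end next to the lower H2A gene. The gene models of the partners differ as well. In RefSeq, H2ac6 and H2ac20 end 4 and 5 bases after the stem-loop, while no stem-loop was found for H2bc4 and H2bc21. What part the promoter letters or the model ends play in the levels was not tested. In the pair of H2ac11 and H2bc11 the order was the other way, with H2ac11 at 4.55, 5.71 and 3.92 TPM and H2bc11 at 2.19, 0.90 and 1.54 TPM. H2bc11 rested on 8.69, 3.55 and 6.03 estimated reads. Of the 50-base words of H2ac11 and H2bc11, 78.9% and 59.4% also occur in other genes, so this order is uncertain.

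**Figure D4:**
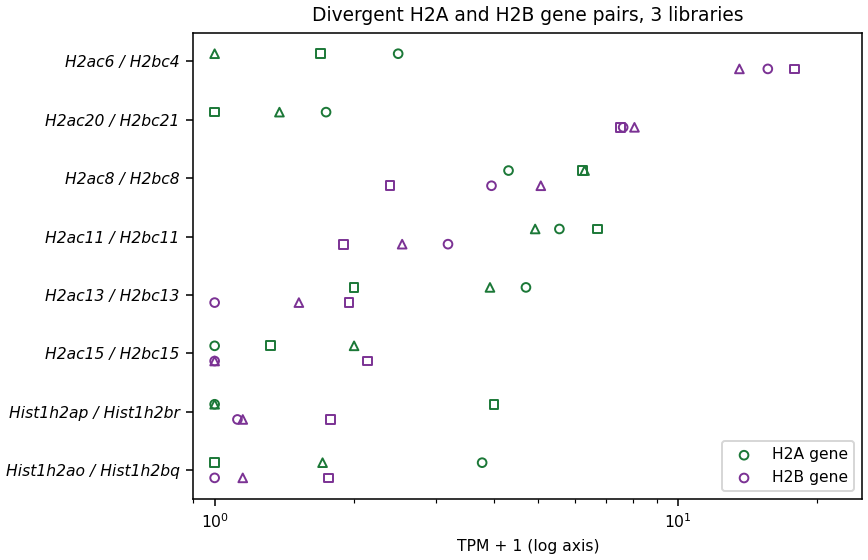
TPM + 1 on a log axis for the 8 head-to-head pairs, H2A genes in green and H2B genes in purple, with circles, squares and triangles for replicates 1, 2 and 3. H2bc4 and H2bc21 stand clear of their H2A partners, while in lower pairs such as H2ac15 and H2bc15 the symbols overlap.

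Histones left out by the symbol rule were listed beside the members. Macroh2a1, an H2A variant with a large added domain, stood at 405.7, 398.4 and 408.6 TPM, above H1f0 and below H2afz in every library. Cenpa, the H3 variant of centromeres, stood at 124.4, 125.6 and 128.7 TPM, above H2afx. H2aw (older Hist3h2a, chromosome 11) stood at 22.3, 24.4 and 22.6 TPM and H2bu2 (older Hist3h2ba, chromosome 11) at 8.12, 8.39 and 8.49 TPM. Macroh2a2 stood at 1.33, 1.77 and 2.24 TPM, and H4f16 at 0, 0.54 and 0 TPM. By their older symbols, H2aw, H2bu2 and H4f16 (older Hist4h4) would be replication-dependent. The counts, sums and positions given above for that class leave them out. In every library H2aw lay above H4c9, and H2bu2 above H2bc21.

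The factors that make, carry and deposit histones were mostly detected, beside 67.3% of all listed genes. Of the listed genes of histone mRNA processing and turnover, 21 of 23 were detected, with a median of 42.1 TPM. Slbp, the stem-loop binding protein, stood at 119.3, 119.9 and 115.8 TPM. Of the proteins shared by spliceosomal and U7 particles, Snrpg, Snrpe, Snrpb and Snrpf led the list at 286.2, 262.4, 250.6 and 122.3 TPM, while Snrpd3 stood at 86.4 TPM. Srrt, which links capped mRNA to processing, stood at 90.6 TPM. Slbp was thus higher in every library than H1f2, the highest replication-dependent gene.

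All 23 listed chaperone genes were detected, with a median of 69.2 TPM. Npm1, an abundant nucleolar chaperone, led with a mean of 1187 TPM, followed by the nucleosome assembly gene Nap1l1 at 439.8 and the histone-binding gene Rbbp7 at 316.4. Set, Ssrp1 of the FACT complex and Nap1l4 stood at 262.8, 189.6 and 161.7 TPM. All 21 listed genes of variant deposition were detected, with a median of 43.7 TPM. They were led by Anp32e, which removes H2A.Z, at 172.3 TPM and the CENP-A chaperone Hjurp at 98.03 TPM. Ubn1 and Cabin1 of the HIRA complex for H3.3 had means of 79.4 and 55.4 TPM, and Yeats4 and Vps72, which serve H2A.Z exchange, 71.5 and 63.8 TPM.

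All 27 listed DNA replication genes were detected, beside 67.3% of all listed genes. Their median was 56.1 TPM, beside a median of 0.933 TPM for the replication-dependent histone genes. What part the unknown mRNA selection and the ends of the gene models play in the lower histone median was not tested. Means were 419.9 TPM for the sliding clamp gene Pcna, 214.0, 155.3 and 150.7 TPM for the helicase genes Mcm6, Mcm3 and Mcm7, and 118.5 TPM for the ligase gene Lig1. Slbp belongs to this list as well. The lists describe these libraries, and no test of one list against another was made.

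**Figure D5:**
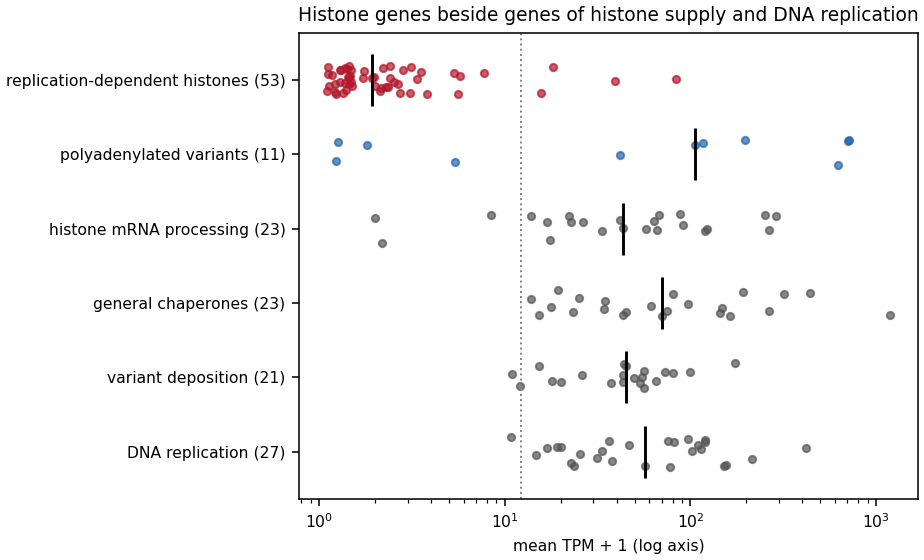
Mean TPM + 1 on a log axis for each listed gene, by group with the number of genes, a bar at the median of each group and a dotted line at the median of all listed genes (11.2 TPM). The replication-dependent genes have a median of 0.933 TPM, and the processing, chaperone, deposition and DNA replication lists have medians from 42.1 to 69.2 TPM.

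The depth was 19948056, 19883728 and 19976129 estimated reads, of which replication-dependent histones received 1312, 1287 and 1280. All 13 ILC2 markers were detected, with a median of 483.8 TPM. Of 9 macrophage markers 8 were detected, with sums of 391.4, 383.5 and 536.5 TPM, highest in replicate 3 and led by Chil3. Of 7 T and B cell markers 2 were detected, Cd3e at 6.09, 6.48 and 8.99 TPM and Cd3d at 1.3, 2.27 and 2.02 TPM, with list sums from 10.0 to 13.8 TPM and Cd4 at 0.0533 TPM. Of 6 epithelial and endothelial markers 3 were detected, with sums from 104.0 to 108.1 TPM and Kdr at 0.0233 TPM. The 3 were Pecam1 at a mean of 79.8 TPM, Scgb1a1 at 14.4, 16.3 and 15.3 TPM and Sftpc at 10.7, 10.2 and 7.33 TPM. H4c9 was also highest in replicate 3, and the part of other cells in the histone levels was not tested.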

How the data were processed

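RNA of lung ILC2s was sequenced in 3 libraries of 1 group, grouped and numbered by their labels. How mRNA was selected is not stated in the sources used here. Per the submitters' processing notes, Bowtie2, RSEM 1.3.1 and the build GRCm38.p6 were used. The sources used here give neither their order and settings nor the gene annotation. Per the file headers, the authors deposited expected counts (estimated reads, not all whole), TPM, FPKM and normalised read counts. The deposited normalised read counts, a depth-scaled signal, equalled the expected count rounded up times 1.00144, 1 and 0.997 and were not used otherwise. Total expected counts were 19948056, 19883728 and 19976129.

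Levels are the authors' TPM, with logs taken as log2(TPM + 1), so that fold changes of low genes are understated. Class, type and detection were computed in Python 3.11.15 with pandas 2.3.3, NumPy 2.4.6 and SciPy 1.17.1, and figures were drawn with matplotlib 3.10.9. The spread calculation was tested on simulated data. Only the 3 fixed pairs of variant genes were tested, each with an exact permutation test (two-sided, flipping the sign of each library's difference) and Benjamini-Hochberg adjustment. Counting ratios used depth-scaled expected counts without rounding and, like the limits for counts of 0, cover counting error only. All 64 members matched RefSeq (GRCm38.p6) by gene ID and had a GENCODE vM21 transcript, which the 50-base words and stem-loops come from, and 58 had a RefSeq promoter.

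The members and lists were chosen with earlier results of these data known. Named by rule were members averaging 5 TPM or more, the genes of the pairs, the 3 detected members with the largest range, the 6 highest genes of each list and all listed histones outside the symbol rule. Names of marker genes were mostly left out. Other members named, the head-to-head pairs, the sequence words and the length check were chosen after the values were seen. Alternatives were other detection levels, pseudocounts of 0.1, FPKM, expected counts scaled to equal depth (CPM), a floor on mean TPM, H2afx moved between classes and each library left out. Chosen after seeing the data were a rule of 10 estimated reads, H3c14 and H3c15 added together, and the class without H1f2.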

Additional observations from a re-analysis of the deposited data

How the results depend on the processing

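Of the 15 detected replication-dependent genes, 5 were counted with detection at 5 TPM, 7 with FPKM, 5 with CPM and 9 with at least 10 estimated reads in each library, and leaving out 1 library gave 17 to 18. The stricter levels remove genes by construction, and requiring fewer libraries adds them. The share of histone TPM in replication-dependent genes (7.86%) was 12.1% with H2afx moved to them, 4.95% without H1f2 and 3.65% in CPM, counts scaled to equal depth that are not divided by length. The class median as log2(TPM + 1), 0.78, was -0.85 with a pseudocount of 0.1, 1.47 for genes with a mean of at least 1 TPM, 0.44 with FPKM and 0.24 with CPM. That of the variants, 6.72, was 6.05 without H2afx, 7.25 for genes with a mean of at least 1 TPM, 5.67 with FPKM and 6.21 with CPM. In CPM, histone genes held 0.178% of reads, and H1, H2A, H2B, H3 and H4 held 13.6%, 28.1%, 0.868%, 57.1% and 0.230% of these. H3f3a minus H3f3b changed sign in CPM (-0.89) and ranged from -0.0084 to 0.048 with 1 library left out, negative without replicate 1. In CPM, H2afz minus H2afv was 1.90 (2.56 in TPM) and H1f0 minus H1f10 was 6.09 (5.21 in TPM), both with p = 0.25 in the exact permutation test. The median SD of log2(TPM + 1) over detected histone genes, 0.162, ranged from 0.0869 to 0.177 with 1 library left out, lowest without replicate 1, and the cause was not tested. The 70 values not reversed or moved further, these 2 included, kept their direction, with pair tests on the same side of the threshold (which 3 libraries cannot pass), counts within 1.5 times and other values within 1 SD between libraries. No paired analysis was possible because there is only 1 group. Depth limits the 46 replication-dependent genes with fewer than 20 reads.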
